A study of Mus musculus with 6 samples.

Results

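The Gadd45 genes and the core targets of the transcription factor p53 were followed after damage by strong light in the retina of the albino mouse strain BALB/c. The set was chosen by gene symbol and holds 10 genes: Trp53, which encodes p53 itself, the p53 targets Mdm2, Cdkn1a, Ccng1, Sesn1, Sesn2 and Phlda3, and the Gadd45 family of Gadd45a, Gadd45b and Gadd45g. Of these, 9 were read by 20 Affymetrix probe sets assigned to 1 of these genes alone, out of 18193 genes and 45037 probe sets in all. Trp53 was not analysed here. All mice were first kept in the dark for 1 week. The 3 light damaged samples came from mice then given 6000 lux of white fluorescent light for 6 h, with retinas taken 24 h after the damage, and the 3 dark adapted samples came from mice without that exposure. Mice of both groups are of the same strain, and no genetic change is named. The labels do not say whether a sample is 1 animal or a pool, nor that replicates come from different mice. The p-values therefore reflect the spread among these samples only, and that spread may be technical.

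p53 is held at a low level by Mdm2, a ubiquitin ligase that is itself a p53 target, and it accumulates when DNA is damaged or cells are otherwise stressed. It then raises the transcription of genes that stop the cell cycle (Cdkn1a, which encodes the kinase inhibitor p21), limit growth signalling (Sesn1, Sesn2, Phlda3) or feed back on p53 (Mdm2, Ccng1). The Gadd45 proteins are small stress proteins that bind cell cycle kinases, PCNA and the kinase MTK1 upstream of p38 and JNK. Gadd45a is the classic p53 target among them, while Gadd45b is known as an immediate target of NF-kappaB and TGF-beta signalling and Gadd45g as a gene induced by cytokines. The comparison asks whether Gadd45b moved together with the p53 targets or apart from them.

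The sequences just upstream of the annotated starts are shown for the 4 of these genes with the largest changes. Gadd45b and Phlda3 rose, while Gadd45g and Cdkn1a passed the test only in the fit that also had the replicate number as a block. Each is the 250 bases before a RefSeq start in GRCm38.p6, read 5′ to 3′ on the gene's plus strand. Capitals mark matches, on either strand, to the consensus p53 half-site, to the consensus NF-kappaB site, to the E-box CACGTG, to TATAAA or to CCAAT. The windows lie at chr10:80929841-80930090 (Gadd45b), chr13:51846425-51846674 (Gadd45g), chr1:135765835-135766084 (Phlda3) and chr17:29090729-29090978 (the upstream one of 2 Cdkn1a starts).
Gadd45b: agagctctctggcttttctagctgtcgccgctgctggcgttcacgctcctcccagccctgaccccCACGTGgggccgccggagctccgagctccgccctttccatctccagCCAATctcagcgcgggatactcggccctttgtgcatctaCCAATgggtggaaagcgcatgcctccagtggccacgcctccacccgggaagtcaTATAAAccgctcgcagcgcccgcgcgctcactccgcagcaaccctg
Gadd45g: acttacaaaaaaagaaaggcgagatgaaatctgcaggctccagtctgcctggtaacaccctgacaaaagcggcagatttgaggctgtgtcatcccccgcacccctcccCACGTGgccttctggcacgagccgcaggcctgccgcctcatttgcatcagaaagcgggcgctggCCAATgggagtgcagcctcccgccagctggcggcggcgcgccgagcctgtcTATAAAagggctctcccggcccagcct
Phlda3: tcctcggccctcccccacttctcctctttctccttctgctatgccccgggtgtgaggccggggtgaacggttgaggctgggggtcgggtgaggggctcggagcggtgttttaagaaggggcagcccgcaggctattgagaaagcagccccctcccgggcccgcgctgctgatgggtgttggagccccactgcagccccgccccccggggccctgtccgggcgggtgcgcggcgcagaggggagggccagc
Cdkn1a: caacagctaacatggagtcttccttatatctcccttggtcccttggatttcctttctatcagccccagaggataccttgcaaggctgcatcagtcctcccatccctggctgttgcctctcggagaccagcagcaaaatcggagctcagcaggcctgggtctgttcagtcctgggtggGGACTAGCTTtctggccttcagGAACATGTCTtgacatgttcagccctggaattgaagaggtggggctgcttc

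The Gadd45b and Gadd45g windows had the same kinds of match, an E-box, at least 1 CCAAT and a TATAAA close to the start, and no p53 half-site. The 9 genes have 11 such windows, since Cdkn1a and Sesn1 have 2 each. The E-box was in 2 of the 11, those of Gadd45b and Gadd45g, and in 6.02% of all 32851 windows of this length, and TATAAA was in the same 2 of the 11 and in 12.4% of all. CCAAT was in 8 of the 11 windows, of 7 genes, and in 33.8% of all. A p53 half-site was in 5 of the 11 windows, 1 each of Cdkn1a, Mdm2, Ccng1, Gadd45a and Sesn1, and in 7.13% of all. In the Cdkn1a window the half-site GAACATGTCT lies 51 to 42 bases before the start. No NF-kappaB consensus was found in any of the 11 windows of the 9 genes (3.9% of all windows). The matches describe these letters only, and the motifs were chosen with the sequences in view.

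Gadd45b and the p53 target Phlda3 rose in light damaged retinas, while the remaining 7 genes did not pass the test. On the log2 scale the 9 genes ranged from -0.21 (Sesn1) to 1.87 (Gadd45b), with a median of 0.34 against 0.03 over all genes. The test was limma's, with a Benjamini-Hochberg adjusted p under 0.05 over all genes, and 2 of the 9 were called higher and none lower. Over all genes 2.01% passed, 1.74% higher and 0.269% lower. At an unadjusted p under 0.05 there were 4 of the 9, where all genes gave 11.0%. Positive changes were seen in 7 of the 9, and in 57.0% of all genes. With the replicate number as a block 4 of the 9 rose, Gadd45g and Cdkn1a being added, where 8.87% of all genes were called and 6.73% were called higher. The groups did not overlap for 5 of the 9 genes, 4 higher and 1 lower in light damaged retinas. Over all genes this held for 15.6%, 11.9% higher and 3.75% lower.

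**Figure D1:**
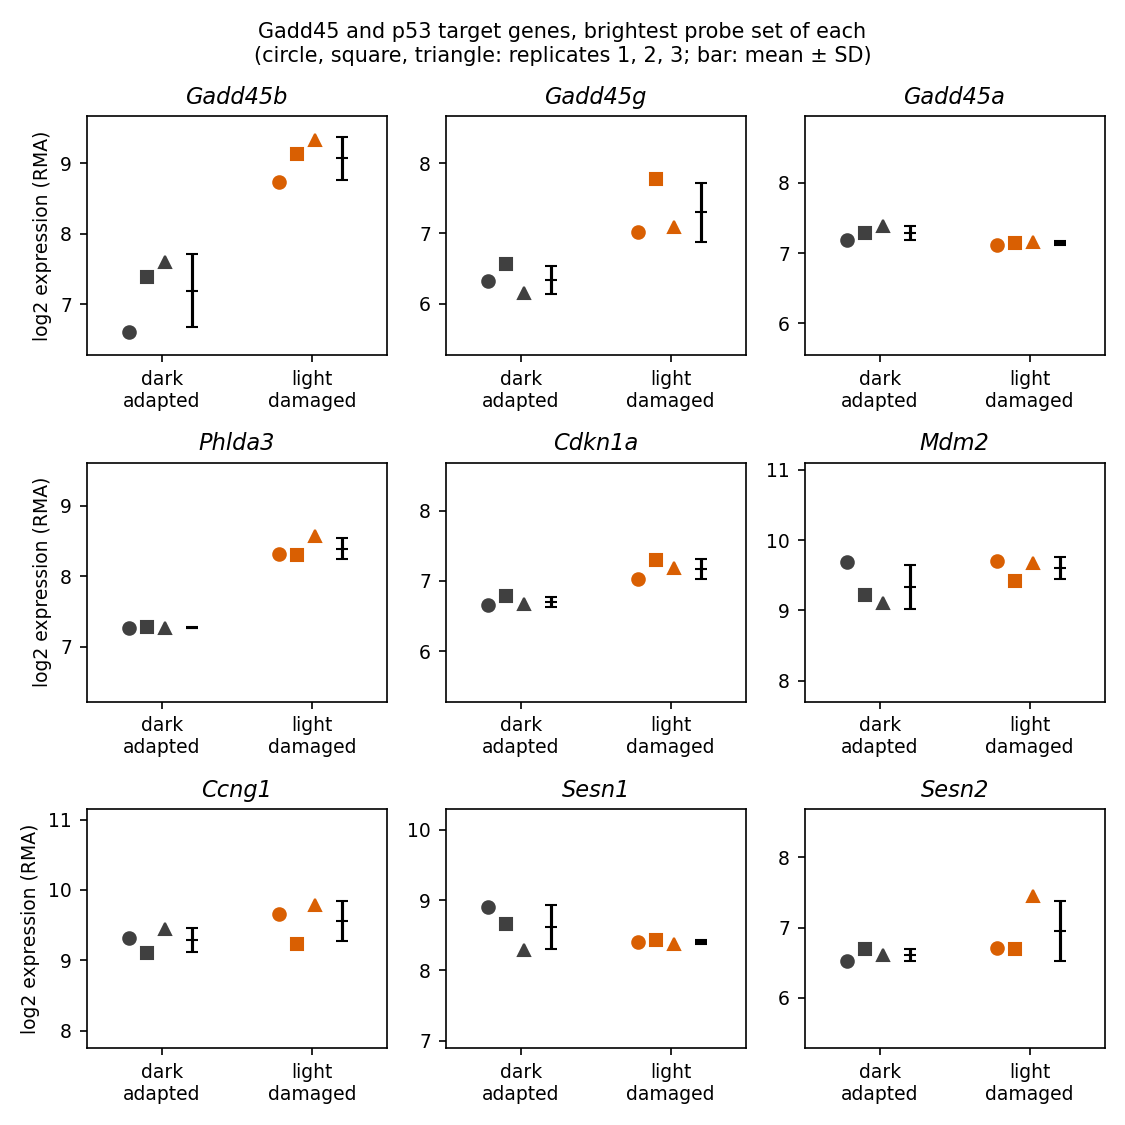
Log2 expression (RMA values, y axis, each panel spanning the same range) of the 9 genes on the 3 dark adapted (grey) and 3 light damaged (orange) arrays, with the brightest probe set of each gene; symbols give the replicate number and bars the mean ± SD. Gadd45b, Gadd45g, Phlda3 and Cdkn1a are higher on all light damaged arrays than on any dark adapted array, and Gadd45a is slightly lower on all of them.

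Gadd45b was read by 3 probe sets. On the brightest, 1450971_at, the dark adapted arrays stood at 6.60, 7.38 and 7.60 and the light damaged arrays at 8.74, 9.13 and 9.34 (log2, replicates 1 to 3). All light damaged values lay above all dark adapted ones, and dark adapted replicate 1 was the lowest of its group. The means were 7.19 ± 0.52 and 9.07 ± 0.31 (SD, n = 3 per group). The rise was 3.66-fold, a log2 change of 1.87 ± 0.27 (SE, limma adjusted p = 0.0115). Same-numbered arrays differed by 2.13, 1.75 and 1.74. Without light damaged replicate 2 the change was 1.84 (adjusted p = 0.0559), without replicate 3 it was 1.74 (adjusted p = 0.0774), and centred on reference genes it was 1.56 (adjusted p = 0.0604). The call was lost in these 3 fits while the change stayed positive.

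A second probe set of Gadd45b, 1449773_s_at, gave a larger change with less spread, but is of a kind that can match several transcripts. It read 6.15, 5.96 and 6.18 on the dark adapted arrays and 7.98, 8.58 and 8.53 on the light damaged ones. The dark adapted arrays were close together here, and the groups were clearly apart. The change was 2.27 ± 0.18 (SE, 4.83-fold), with limma adjusted p = 0.0027 in the fit over all probe sets, in which 1450971_at had adjusted p = 0.0237. The remaining probe set, 1420197_at, read 5.82, 5.89 and 5.61 against 6.19, 5.94 and 5.91, a difference of 0.24 (limma adjusted p = 0.777). Its groups did not overlap either, but they nearly met between dark adapted replicate 2 and light damaged replicate 3.

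Gadd45g, the family member known for induction by cytokines, had the third largest change of the set. Its only probe set read 6.32, 6.56 and 6.15 on dark adapted and 7.02, 7.78 and 7.09 on light damaged arrays. The groups did not overlap, and light damaged replicate 2 stood above the other two. The log2 change was 0.95 ± 0.22 (SE, 1.94-fold), which did not pass the test over all genes (limma adjusted p = 0.0817). Pairs of the same number differed by 0.70, 1.22 and 0.94, and with the replicate number as a block the gene passed (adjusted p = 0.00144).

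Gadd45a, the p53 target of the family, had a difference of the other sign, which did not pass. Its probe set read 7.18, 7.28 and 7.38 on dark adapted and 7.11, 7.15 and 7.16 on light damaged arrays. All light damaged values lay below the dark adapted ones, by a small margin. The log2 change was -0.14 ± 0.12 (SE, limma adjusted p = 0.822), with a 95% interval from -0.42 to 0.14, which contains no rise of the size seen for Gadd45b.

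Phlda3, whose protein competes with the kinase AKT for membrane lipids, was the p53 target with the largest change. It read 7.26, 7.28 and 7.27 on dark adapted and 8.31, 8.30 and 8.57 on light damaged arrays. The dark adapted arrays were nearly equal, and every light damaged array stood clearly higher. The means were 7.27 ± 0.01 and 8.39 ± 0.15 (SD, n = 3 per group). The rise was 2.18-fold, a log2 change of 1.12 ± 0.13 (SE, limma adjusted p = 0.00425). Phlda3 kept its call with each array left out in turn (adjusted p up to 0.0267), and stood just past the threshold, at 0.0517, centred on reference genes.

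Cdkn1a, the cell cycle inhibitor most used as a readout of p53, had a smaller difference. Its brighter probe set, 1424638_at, read 6.66, 6.78 and 6.67 on dark adapted and 7.03, 7.30 and 7.18 on light damaged arrays, with no overlap. The log2 change was 0.47 ± 0.13 (SE, 1.38-fold, 95% interval 0.17 to 0.76), with limma adjusted p = 0.153, and adjusted p = 0.0239 with the replicate number as a block. Centred on reference genes the change was 0.15 (limma adjusted p = 0.547). The other probe set, 1421679_a_at, overlapped between groups, with a change of 0.14 (adjusted p = 0.905).

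Mdm2 and Ccng1, the feedback genes, had overlapping groups on their brightest probe sets. Mdm2 read 9.69, 9.22 and 9.10 on dark adapted and 9.70, 9.42 and 9.68 on light damaged arrays. Dark adapted replicate 1 was as high as the light damaged arrays, and the change was 0.26 (95% interval -0.15 to 0.68, limma adjusted p = 0.734). A second Mdm2 probe set, 1427718_a_at, had a difference of 0.20 without overlap, and the third, 1457929_at, of -0.07 at means of 4.51 and 4.44 that lay below the lower quartile of the arrays. Ccng1, which encodes cyclin G1, read 9.31, 9.11 and 9.45 on dark adapted and 9.66, 9.23 and 9.79 on light damaged arrays. Its change was 0.26 as well (95% interval -0.15 to 0.67, adjusted p = 0.726), and its other probe sets gave 0.02 and 0.10. When the arrays were centred on reference genes the changes of Mdm2 and Ccng1 became -0.05 each, so their sign depends on the scaling.

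The sestrins, stress proteins that restrain the growth kinase mTORC1, had changes of opposite sign, and neither passed. Sesn1 read 8.90, 8.66 and 8.29 on dark adapted and 8.40, 8.44 and 8.38 on light damaged arrays. Dark adapted replicate 3 lay below all light damaged values, so the groups overlapped, and the change was -0.21 ± 0.17 (SE, limma adjusted p = 0.797). All 4 Sesn1 probe sets had negative changes, from -0.48 to -0.21. Sesn2 read 6.52, 6.70 and 6.61 on dark adapted and 6.71, 6.70 and 7.45 on light damaged arrays. Its change of 0.34 ± 0.21 (SE, adjusted p = 0.686) came mostly from light damaged replicate 3. Centred on reference genes the change of Sesn2 was 0.02 (limma adjusted p = 0.94). Its other probe set, 1425139_at, read 6.18, 6.19 and 5.96 against 6.55, 6.39 and 6.60, a change of 0.40 without overlap (adjusted p = 0.339 over all probe sets).

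Over all 20 probe sets of the 9 genes, there were 3 that rose and none that fell, where 1.02% of all probe sets were called, 0.913% higher and 0.104% lower. The 3 were 2 of Gadd45b and the 1 of Phlda3. Positive changes were seen in 14 of the 20, with a median of 0.22, where all probe sets gave 52.0% and 0.01. The groups were apart for 10 of the 20, 8 higher and 2 lower, against 13.2% of all probe sets (8.99% higher and 4.21% lower). At an unadjusted p under 0.05 there were 6 of the 20, and 8.73% of all. With the replicate number as a block 5 of the 20 rose, where 4.68% of all probe sets were called and 3.48% were called higher.

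**Figure D2:**
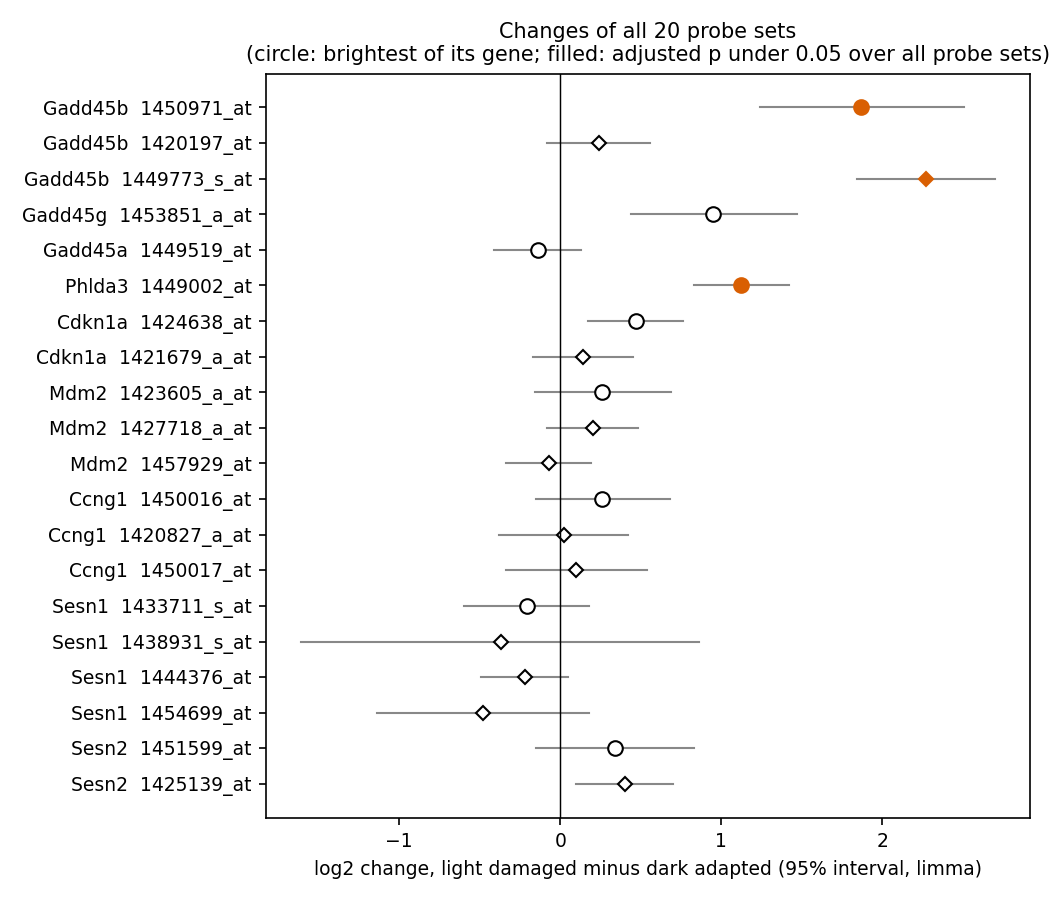
Log2 change (light damaged minus dark adapted, x axis) of each of the 20 probe sets with its 95% interval from limma, grouped by gene; circles are the brightest probe set of a gene, diamonds the others, and filled symbols passed the test over all probe sets. The 2 filled Gadd45b symbols lie at 1.87 and 2.27 and Phlda3 at 1.12, while the intervals of Mdm2, Ccng1, Sesn1 and Gadd45a include 0.

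Gadd45b was then set directly against each of the other 8 genes. On each array the log2 value of the other gene was subtracted from that of Gadd45b, and the groups were compared with an exact two-sided permutation test. The smallest p it can give with 3 arrays a group is 0.1. On its brightest probe set, the change of Gadd45b was larger than that of each of them in these samples. The excess was smallest over Phlda3 (0.75) and Gadd45g (0.92), and it was 1.41 over Cdkn1a, 1.54 over Sesn2, 1.61 over Mdm2, 1.61 over Ccng1, 2.01 over Gadd45a and 2.08 over Sesn1. Relative to Cdkn1a this is a 2.65-fold and relative to Gadd45a a 4.04-fold larger ratio of light damaged to dark adapted level. The exact permutation p was 0.1 for 7 genes (0.114 adjusted over the 8 comparisons) and 0.2 for Gadd45g, so no difference could pass at 0.05. In the same-numbered pairs all 24 of 24 differences were positive, the smallest being 0.44 for Phlda3 in pair 3. An exact test that flips the signs of the 3 pair differences gave p = 0.25 for each gene, the smallest it can give. The direction depended on the Gadd45b probe set. With the second brightest one all 8 differences were positive too, but with the dimmest, 1420197_at, 6 of the 8 turned negative, from -0.88 for Phlda3 and -0.72 for Gadd45g to -0.02 for Mdm2 and Ccng1, and those over Gadd45a (0.38) and Sesn1 (0.45) stayed positive. The 8 comparisons share the Gadd45b values and are not independent of each other.

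**Figure D3:**
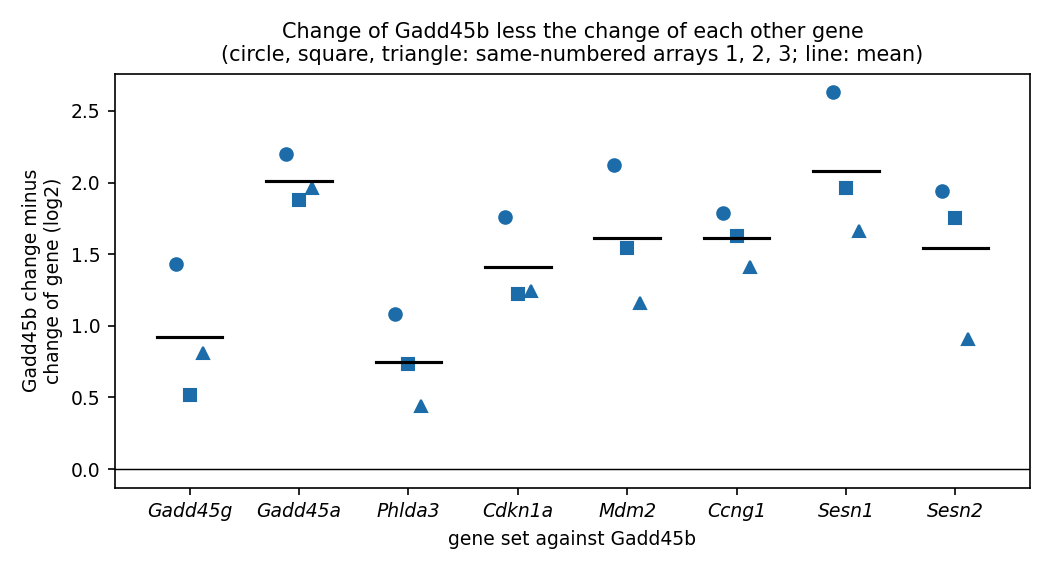
Change of Gadd45b minus the change of each other gene (log2, y axis) in the 3 same-numbered pairs of arrays (symbols) and their mean (line), with the brightest probe set of each gene. All points are above 0, and the means run from 0.75 for Phlda3 to 2.08 for Sesn1.

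Most of the further p53 targets did not pass the test. Among 14 measured targets that act in cell death there were 2 that rose and none that fell, where 1.74% of all genes were called higher, and the median was 0.14. Aen, a p53-induced nuclease, rose from 7.63 ± 0.12 to 8.60 ± 0.11 (SD, n = 3 per group; log2 change 0.97, limma adjusted p = 0.00871). Bid, a BH3 protein that links death receptors to mitochondria, rose from 5.24 ± 0.16 to 6.05 ± 0.08 (0.81, adjusted p = 0.0236). Other probe sets of Aen ranged from -0.12 to 0.60 and those of Bid gave 0.05 and 0.13, and averaged over probe sets the changes were 0.41 for Aen (adjusted p = 0.142) and 0.33 for Bid (adjusted p = 0.334). With 1 array left out the changes were 0.90 to 1.03 for Aen and 0.73 to 0.89 for Bid, and the calls were lost in 3 and 5 of the 6 such fits (adjusted p up to 0.0587 and 0.126). Bbc3 and Pmaip1, which encode the p53-induced death proteins PUMA and NOXA, had changes of -0.03 and -0.10 (adjusted p = 0.987 and 0.91), and are named after their values were seen. Pmaip1 read between 3.96 and 4.33 on all arrays, below the lower quartile of each, where differences are compressed.

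Of 14 measured targets that act in arrest, repair and metabolism none passed, with a median of 0.05 and changes from -0.51 to 0.69. By unadjusted p under 0.05 there was 1, where all genes gave 11.0%. It was Tigar, a regulator of glycolysis, at -0.51 (limma adjusted p = 0.389). With the replicate number as a block 2 of the 14 rose, Zmat3 and Plk2, and Tigar fell (adjusted p = 0.0357, 0.0281 and 0.0376). In that fit 6.73% of all genes were called higher and 2.13% lower. Zmat3 and Plk2 are named after their values were seen. Of 17 regulators of p53 only Rchy1, a ubiquitin ligase for p53, rose (0.70, adjusted p = 0.042), where 1.74% of all genes were called higher. The other 16 did not pass, and the median was 0.16. Trp73, which encodes the p53 relative p73 and is named after its value was seen, fell by 0.44 with the replicate number as a block (adjusted p = 0.0316, and 0.374 without it). Rchy1 lost the call in 9 of 13 alternative fits, among them 5 of the 6 that left out 1 array (adjusted p up to 0.192).

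Among 11 genes of proteins that bind or act downstream of Gadd45 proteins none passed, with a median of 0.19. The smallest p was that of Pcna, the replication clamp, which read 10.42, 10.23 and 10.06 on dark adapted and 10.73, 10.78 and 10.69 on light damaged arrays (0.50, limma adjusted p = 0.147, and 0.024 with the replicate number as a block). The p38 and JNK kinase genes and their activators were among those that did not pass.

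Some genes of the pathways known to induce Gadd45b rose. Of 16 measured genes 4 rose and none fell, where 1.74% of all genes were called higher. Positive changes were seen in 15 of the 16, and in 57.0% of all genes, and the median was 0.46. With the replicate number as a block 8 rose, where 6.73% of all genes did. Stat3, the transcription factor downstream of interleukin 6 family cytokines, rose by 1.77 ± 0.21 (SE, limma adjusted p = 0.00475). Its other probe sets gave 1.92, 1.39 and -0.04, the last with overlapping groups, and averaged over probe sets its change was 1.26 (limma adjusted p = 0.00479). Tnfrsf1a, the TNF receptor that activates NF-kappaB, rose by 1.20 ± 0.14 (SE, adjusted p = 0.00417). Tgfb2, a TGF-beta ligand, rose by 1.06 (adjusted p = 0.00501) and Relb, an NF-kappaB subunit, by 1.02 (adjusted p = 0.0304). Relb lost the call with each of 5 arrays left out (adjusted p up to 0.136), and Tgfb2 lost it when its 4 probe sets were averaged (0.96, adjusted p = 0.0725) and when probe sets that can match several transcripts were removed (0.80, adjusted p = 0.358). The largest change of the list was that of Egr1, an immediate early transcription factor, which did not pass (1.80 ± 0.53, SE, adjusted p = 0.183, and 0.00935 with the replicate number as a block). The ligand genes Tnf and Il1b had changes of 0.07 and -0.04 (adjusted p = 0.968 and 0.978). These last 3 genes are named after their values were seen. The list was chosen with earlier results of these data known. Its values are mRNA levels and not pathway activity, and a link of these genes to the rise of Gadd45b was not tested.

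**Figure D4:**
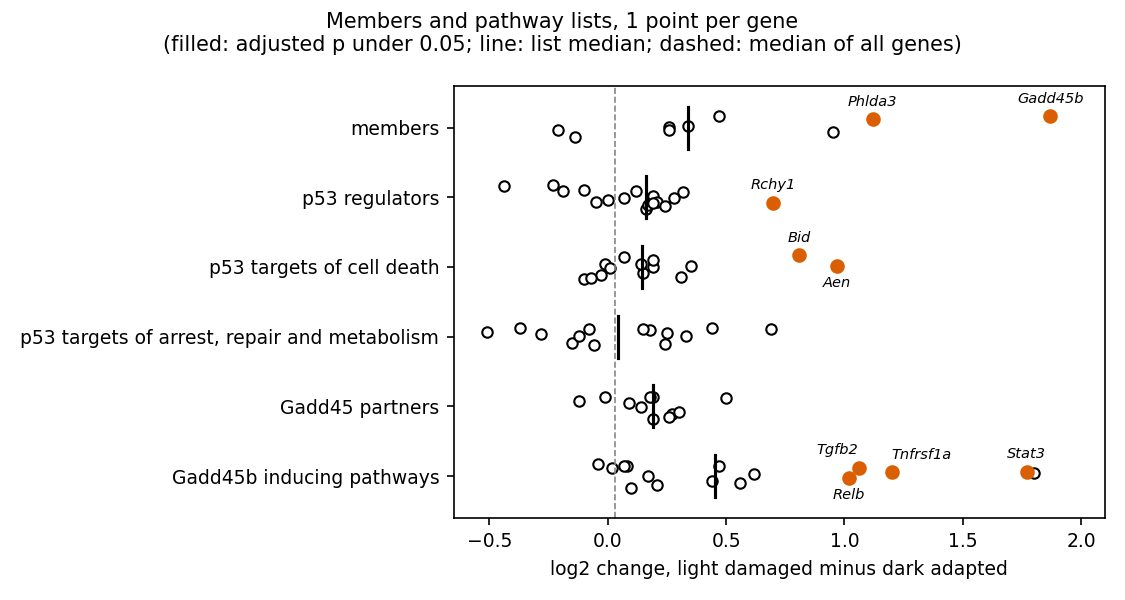
Log2 change (light damaged minus dark adapted, x axis) of the 9 members and of each measured gene of the pathway lists, 1 point per gene; filled points passed the test over all genes, the short lines are list medians and the dashed line is the median of all genes. The members spread from -0.21 to 1.87, and the list medians run from 0.05 (arrest, repair and metabolism) to 0.46 (inducing pathways).

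The genes whose pattern over the 6 arrays was most like that of Gadd45b were Eif4ebp1, an inhibitor of translation initiation (Pearson r = 0.993), Ddx58, the RNA sensor RIG-I (0.993), Timp1, an inhibitor of metalloproteases (0.992), Cited1, a transcriptional cofactor (0.992), and Pgm2, a phosphoglucomutase (0.988). On their brightest probe sets all 5 were lowest on dark adapted replicate 1, as Gadd45b was, and all were higher on every light damaged array. Other probe sets of these genes did not all do so. Gadd45b was lowest on dark adapted replicate 2 on 1449773_s_at (5.96). Eif4ebp1 on 1417563_at and Ddx58 on 1446457_at had overlapping groups, with changes of 0.10 each. They were picked as the extremes of 18193 genes over 6 arrays that fall into 2 groups, so such values of r describe the choice.

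Whole retinas were measured, so fewer cells of a type and less RNA per cell cannot be told apart. Rod genes, the mark of the tissue, were bright on all arrays except for Prph2, which is named after its values were seen. Prph2 read 6.85 to 7.97 on dark adapted and 5.87 to 6.59 on light damaged arrays. All 9 rod genes had negative changes (median -0.62), of which that of Nrl passed (-1.04, limma adjusted p = 0.0378). Nrl did not pass with dark adapted replicate 1 or 2 or light damaged replicate 2 or 3 left out (-1.05 to -0.90, adjusted p up to 0.192), nor with a variance trend (adjusted p = 0.0668). With the replicate number as a block 6 of the 9 rod genes fell, where 2.13% of all genes were called lower. The mean of the list lay between 11.92 and 12.32 on dark adapted and between 11.38 and 11.75 on light damaged arrays.

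Changes of glial genes had both signs. Of 8 measured 3 rose, where 1.74% of all genes were called higher. Lcn2 had the smallest p and the largest change (4.16, limma adjusted p = 0.000757), and the median change was 0.53. The mean of the list went from 8.61 to 8.92 up to 9.49 to 9.83. Changes were positive for 5 of the 8, and the lowest was that of Glul, the glutamine synthetase of Mueller glia, at -0.99 without overlap (adjusted p = 0.0652). With the block 5 rose and 2 fell, Glul and Rlbp1 (adjusted p = 0.000775 and 0.0329). In that fit 6.73% of all genes were called higher and 2.13% lower. Of 10 microglia and macrophage genes 2 rose, Cd68 with the smallest p (1.88, adjusted p = 0.00474) and Lyz2 (1.30). The mean of the list went from 5.76 to 6.01 up to 6.21 to 6.34, and the median change was 0.18. Changes were positive for 8 of the 10, among them Itgam, Aif1 and Cx3cr1 at 0.02, 0.08 and 0.09 with overlapping groups. The lowest was that of P2ry12, a receptor of resting microglia, at -0.48 without overlap (adjusted p = 0.207). With the block 3 rose and P2ry12 fell (adjusted p = 0.0199). Glul, Rlbp1, Lyz2, Itgam, Aif1, Cx3cr1 and P2ry12 are named after their values were seen.

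None of 6 vascular, 6 retinal pigment epithelium, 6 lens and 4 blood cell genes passed. The smallest p in these lists were those of Kdr (0.44, limma adjusted p = 0.191), Ttr (0.99, 0.274), Bfsp1 (-1.12, 0.735) and Alas2 (-0.26, 0.786). With the replicate number as a block Kdr and Ttr rose (adjusted p = 0.0318 and 0.0471) and the lens genes Bfsp1 and Lim2 fell (adjusted p = 0.00028 and 0.0418). In that fit 6.73% of all genes were called higher and 2.13% lower. The lens genes were bright, with list means of 10.35 to 12.04 on dark adapted and 10.15 to 11.71 on light damaged arrays. Each of the 6 lens genes was highest on replicate 3 in both groups. How much lens tissue the samples held was not tested. The part of these cell type changes in the rises of Gadd45b and Phlda3 was not tested.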

How the data were processed

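Total RNA of 6 retina samples was hybridised to Affymetrix arrays, and samples were grouped by their titles. The deposited values are log2 expression values that the authors made with RMA, per the submitters' processing notes; the version and genome build are not given in the sources used here. RMA scales the arrays to each other, so a change in total RNA would not be seen, and it compresses differences of dim probe sets. The deposited arrays were not fully equal, with upper quartiles from 7.41 (dark adapted replicate 3) to 7.67 (light damaged replicate 1). The number of arrays limits the precision. The values were used as deposited. Of 45101 probe sets, 64 controls were left out; GEO's platform annotation gave 34945 of the rest 1 gene, and all 20 member probe sets had the same symbol in RefSeq.

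Groups were compared with limma 3.58.1 (lmFit, eBayes) in R 4.3.3 in a fit over 18193 genes, each by its brightest probe set, and in a second fit over 45037 probe sets. The members and lists were chosen with earlier results of these data known. Named were all members, up to 4 called genes per pathway list (or the 1 with the smallest p), the gene with the smallest p per marker list, and the 5 genes most correlated with Gadd45b, predicted names left out. Promoter windows are RefSeq's. Deviations from the group means correlated at 0.731, 0.618 and 0.432 between arrays of the same replicate number (others -0.48 to 0.00902). All 3 exceeded 0.1, so same-numbered arrays were also compared as pairs, and the number served as a block in an alternative fit. The main fits had no block, and no label states this pairing. On simulated data of the 18193 genes the fit recovered 4, 88, 100 and 100% of log2 changes of 0.5, 1, 2 and 3, with 15 false calls. That is a count, and the share of false calls among all calls is not given. The simulated noise was independent between arrays, without the correlation of same-numbered arrays seen here. Alternatives were the replicate block, each array left out, 3 scalings, a filter on dim rows, a variance trend, the mean of probe sets and the removal of probe sets that can match several transcripts.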

Additional observations from a re-analysis of the deposited data

How the results depend on the processing

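For the comparison of Gadd45b with the other genes, 3 settings (75th percentile, reference gene centring and the replicate block) leave the differences unchanged by construction. Of the 11 settings that can move them, 10 left each difference positive, from 0.34 for Phlda3 to 2.48 for Sesn1 (9 for Gadd45g, whose only probe set was lost when probe sets that can match several transcripts were removed). In the remaining one, with the dimmest Gadd45b probe set, the differences were -0.88 for Phlda3, -0.72 for Gadd45g, -0.23 for Cdkn1a, -0.1 for Sesn2 and -0.02 for Mdm2 and Ccng1; the cause was not tested. This and the use of the second Gadd45b probe set were chosen after seeing the data. With the replicate block 4 member genes and 5 member probe sets rose and no further member call changed. With 1 array left out, 1 to 2 member genes and 1 to 3 member probe sets rose. Centring on the reference genes left 0 member genes (Gadd45b at 1.56, limma adjusted p = 0.0604; Phlda3 at 0.81, adjusted p = 0.0517) and 1 member probe set, and also ended the calls of Tgfb2, Aen, Bid, Relb and Rchy1 (adjusted p = 0.0947, 0.115, 0.148, 0.198 and 0.229). Of the 6 reference genes 5 had positive changes (mean 0.31), which centring subtracts from every gene by construction, so the median of all genes moved from 0.03 to -0.28. Over all genes 316 rose and 49 fell; with the replicate block 1225 and 388, with quantile normalization again 325 and 161, centred on the 75th percentile 270 and 91, and centred on reference genes 122 and 211. With 1 array left out 142 to 384 rose and 10 to 83 fell.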

Other observations

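On 2 Sesn1 probe sets the arrays of the same replicate number were high or low together. The probe set 1438931_s_at read 7.76, 7.54 and 5.85 on dark adapted and 7.29, 6.82 and 5.92 on light damaged arrays, so replicate 3 was lowest in both groups. The probe set 1454699_at read 7.48, 6.97 and 6.56 against 7.03, 6.28 and 6.28, with replicate 1 highest in both.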
